A study of Mus musculus with 12 samples.

Results

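Fatty acid oxidation genes were followed in mouse macrophages grown from bone marrow. The 30 genes were chosen by name from the deposited count table and cover mitochondrial and peroxisomal β-oxidation, the activation of fatty acids and regulators of these steps. They are 30 of the 48440 rows of the table, and all 30 were among the 16292 genes with enough counts to be tested. RNA was sequenced with an RNA exome kit, which enriches exon fragments, in 12 libraries of 6 groups with n = 2 libraries a group. The groups were macrophages labelled CKO and macrophages labelled WT (wild type), each given IFN-γ at 100 U/mL for 24 h, given IL-4 at 20 ng/mL for 24 h, or left untreated. IRF8, a transcription factor, appears in the title of the series, and the labels do not spell out CKO, the deleted gene, the driver of a deletion, or the strain, sex and age of the animals. Whether both libraries of a group are separate animals or cultures is not stated either, so a p-value here rests on a spread that may be only technical.

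Long-chain fatty acids are first joined to coenzyme A by acyl-CoA synthetases, then carried into mitochondria as carnitine esters, and there shortened in repeated rounds of dehydrogenation, hydration, a further dehydrogenation and thiolysis. The electrons pass through electron transfer flavoprotein to the respiratory chain, and very long chains are shortened first in peroxisomes. In macrophages, IL-4 is known for raising fatty acid oxidation and IFN-γ for favouring glycolysis.

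The libraries held 21287725 to 32717379 counts each. Both cytokines gave their known targets in both genotypes: all 8 genes of a list of IL-4 targets (Arg1, Retnla and Mrc1 among them) were higher after IL-4, and all 8 of a list of IFN-γ targets (Cxcl9, Gbp2 and Irf1 among them) were higher after IFN-γ, with edgeR adjusted p under 0.05. The macrophage markers (Adgre1 and Csf1r among 8) summed to 3613 to 4880 CPM (counts scaled to a common library size) in the libraries labelled CKO and to 2959 to 3426 CPM in WT libraries. Of these 8, 3 were called higher and 1 lower in untreated libraries labelled CKO than in WT. After IFN-γ 5 were higher and 1 lower, and after IL-4 0 were higher and 2 lower. The part of macrophage markers in the differences below was not tested. Irf8, the gene named in the title, had 293 and 248 CPM in the untreated libraries labelled CKO, against 90.9 and 91.2 CPM in untreated WT libraries, and was also higher in the libraries labelled CKO after IFN-γ and after IL-4. A count over the whole gene cannot show a deleted exon, and the genotype is given throughout as labelled. Neutrophil markers were higher in the libraries labelled CKO: 12 of 13 tested markers in untreated cells, 12 of 13 after IFN-γ and 10 of 13 after IL-4, with sums over 14 genes of 435 to 989.5 CPM in the libraries labelled CKO and 99.98 to 242 CPM in WT libraries. Monocyte markers were called higher for 6 of 8 genes in untreated cells, 6 after IFN-γ and 5 after IL-4, with sums of 157 to 718 CPM in the libraries labelled CKO and 74.6 to 280.1 CPM in WT libraries. Untreated CKO library 1 had 1.52% of its counts in genes of the mitochondrial genome, against 2.12% to 3.25% in the 11 other libraries, and results that change without it are given below. Dendritic cell markers summed to 1.96 to 11.0 CPM in the libraries labelled CKO and 1.91 to 60.3 CPM in WT libraries. Markers of mast cells, lymphocytes, stroma, adipocytes and erythroid cells summed to at most 4.97 CPM per list in any library. In bulk RNA, fewer cells of a type and less RNA per cell cannot be told apart.

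The genes covered a wide range of levels. Per kilobase of coding sequence, Plin2, which encodes the lipid droplet coat protein perilipin, had the highest median over the 12 libraries at 467 CPM per kb. Acsl5, an acyl-CoA synthetase of mitochondria and endoplasmic reticulum, followed at 92.9 CPM per kb, and Cpt1a, the carnitine palmitoyltransferase of the outer mitochondrial membrane, at 74.4 CPM per kb. The lowest medians were those of Ppargc1b, a transcriptional coactivator of mitochondrial genes, at 1.965 CPM per kb, of Angptl4, a secreted inhibitor of lipoprotein lipase, at 1.24 CPM per kb, and of Ehhadh, the peroxisomal bifunctional enzyme, at 0.347 CPM per kb. The order of the middle ranks depends on the length used, since Cpt1a ranked 3 by coding length and 7 by the union of its exons. The smallest library count behind an Ehhadh value was 9 and behind a Plin2 value 13610.

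The mitochondrial enzymes and carriers varied less across the 12 libraries than Abcd2, Angptl4, Ppargc1b, Acsl3, Ehhadh, Acsl1 and Plin2. For the 18 mitochondrial genes the highest library exceeded the lowest by at most 2.04-fold, in Etfb, a subunit of electron transfer flavoprotein. The highest library exceeded the lowest by 1.23-fold for Echs1, the short-chain enoyl-CoA hydratase, and by 1.41-fold for Hadhb, the thiolase subunit of the trifunctional protein. The same ratio was 12.7 for Abcd2, a peroxisomal importer of very-long-chain acyl-CoA, 12.7 for Angptl4, 8.80 for Ppargc1b, 7.90 for Acsl3, a synthetase found on lipid droplets, 5.78 for Ehhadh, 2.64 for Acsl1 and 2.56 for Plin2. The synthetases Acsl4 and Acsl5, at 1.51 and 1.81, lay within the range of the mitochondrial genes. Over the 7 pairwise comparisons there were 47 calls at an edgeR adjusted p under 0.05, and Abcd2 alone was called in 6 of the 7. Of the 16292 tested genes, 199 were called in 6 comparisons and 54 in 7. The 7 genes called in none were Cpt2, Acadl, Acadvl, Hadhb, Echs1, Eci1 and Acaa1a, where 7878 of the 16292 tested genes were called in none.

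**Figure D1:**
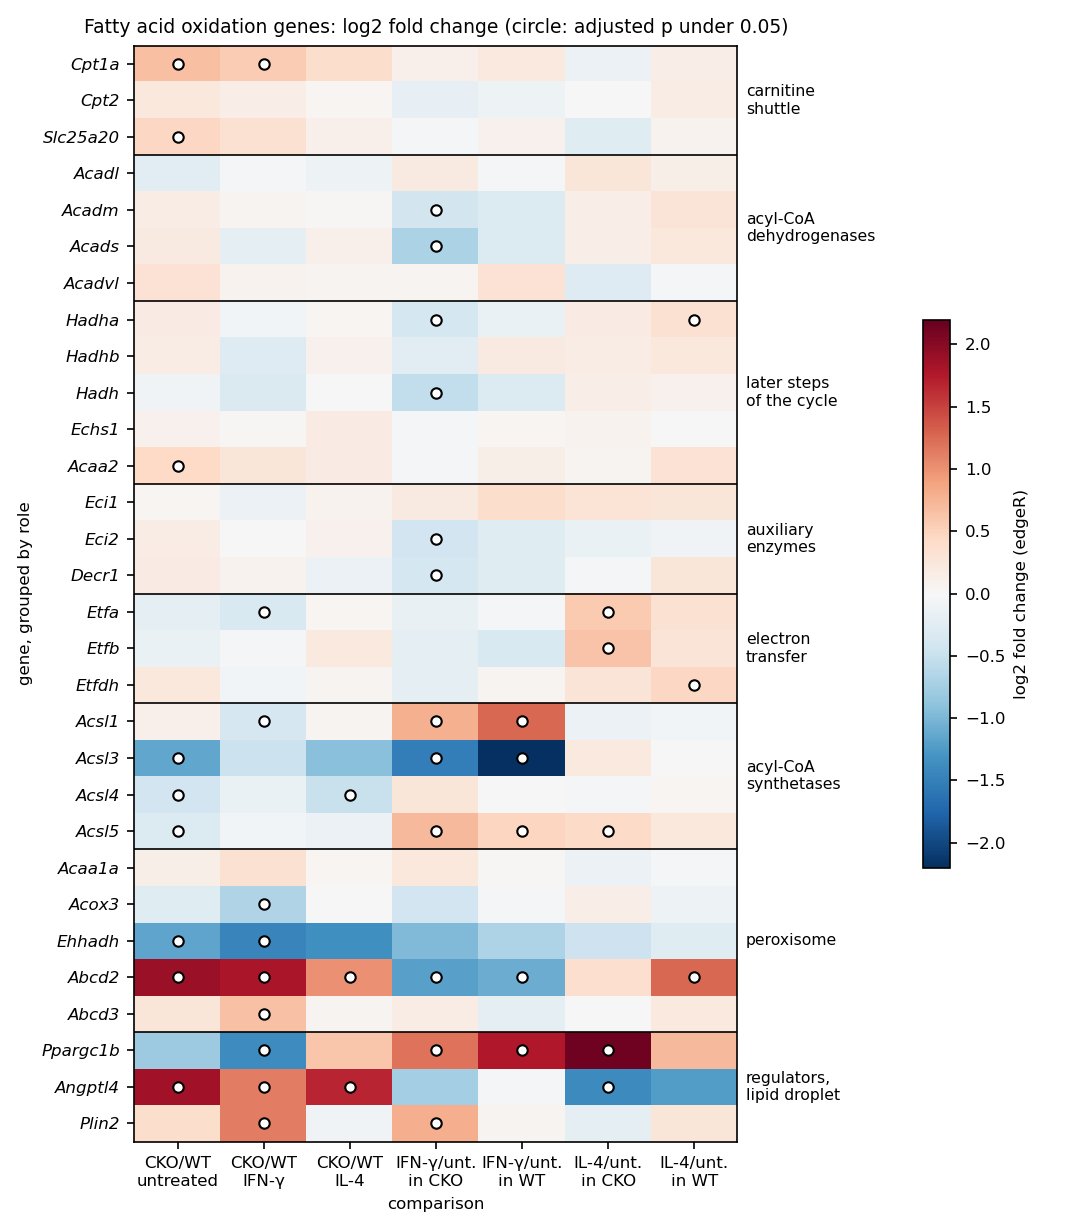
Log2 fold changes of the 30 genes (rows, grouped by role) in 7 pairwise comparisons (columns), with the first-named group over the second; circles mark an edgeR adjusted p under 0.05. The deepest colours are in the rows of Acsl3, Abcd2, Ppargc1b, Angptl4 and Ehhadh, and most rows of mitochondrial enzymes are pale.

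Promoter sequences are shown for Hadhb, Cpt1a and Plin2, as RefSeq gives them for GRCm38.p6, from 250 bases before to 50 bases after the annotated start. The table held 27 promoters of 25 of the 30 genes, and Acaa2, Decr1, Abcd2, Ppargc1b and Angptl4 are named only. Hadha and Hadhb, the subunit genes of the trifunctional protein, start 273 bases apart in opposite directions and their windows share 228 bases, so a single sequence, in the direction of Hadhb, shows most of both (chr5:30155003-30155302, plus strand). It held none of the motifs reported here, and its capitals mark the 50 bases from the Hadhb start on. Cpt1a (chr19:3323051-3323350, plus strand) and Plin2 (chr4:86670010-86670309, minus strand) were among the genes higher in the libraries labelled CKO, Cpt1a in untreated cells and after IFN-γ and Plin2 after IFN-γ, and their capitals mark the nuclear receptor motif AGGTCA, read as TGACCT on this strand, and in Plin2 also the E-box CACGTG.
Hadhb: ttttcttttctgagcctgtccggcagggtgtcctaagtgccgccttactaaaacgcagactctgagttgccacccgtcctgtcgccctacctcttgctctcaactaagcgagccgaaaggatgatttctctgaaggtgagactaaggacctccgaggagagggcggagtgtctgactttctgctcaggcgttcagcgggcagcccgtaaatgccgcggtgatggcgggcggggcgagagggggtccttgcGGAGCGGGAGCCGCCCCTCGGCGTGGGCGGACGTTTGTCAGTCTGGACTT
Cpt1a: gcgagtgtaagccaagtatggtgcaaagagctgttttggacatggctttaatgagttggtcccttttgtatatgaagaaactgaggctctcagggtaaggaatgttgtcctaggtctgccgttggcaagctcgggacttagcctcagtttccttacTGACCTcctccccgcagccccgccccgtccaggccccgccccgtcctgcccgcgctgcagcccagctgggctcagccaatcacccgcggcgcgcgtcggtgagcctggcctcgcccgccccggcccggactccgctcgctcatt
Plin2: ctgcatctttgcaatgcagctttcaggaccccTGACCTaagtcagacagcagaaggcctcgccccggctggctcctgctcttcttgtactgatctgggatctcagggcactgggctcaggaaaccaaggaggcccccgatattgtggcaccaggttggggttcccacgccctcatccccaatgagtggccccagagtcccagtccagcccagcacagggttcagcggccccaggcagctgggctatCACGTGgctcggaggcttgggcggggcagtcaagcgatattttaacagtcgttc
AGGTCA lay 94 bases before the start of Cpt1a and 218 before that of Plin2, where the E-box lay 4 bases before the start.

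Motifs were searched on both strands of these windows and of all 32851 promoters in the table. AGGTCA matched 5 of the 27 promoters (18.5%, against 16.3% of all promoters), those of Acadm, Acadvl, Cpt1a, Echs1 and Plin2. Cpt2 and Slc25a20 held the ETS motif CCGGAAG (7.41%, against 8.86%), Abcd3 the STAT6 motif TTCNNNNGAA (3.70%, against 6.95%) and Plin2 CACGTG (3.70%, against 7.15%). None of the 27 held the PPAR response element, spelled AGGTCANAGGTCA (0.0396% of all promoters), the ERR element TNAAGGTCA (1.28%) or the interferon element core GAAANNGAAA (3.44%). The first 2 of these contain AGGTCA, so their matches are also counted there.

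The libraries labelled CKO were compared with WT in untreated cells, where 2 of the 3 carnitine shuttle genes were higher and 3 of the 4 synthetases were lower. Of the 30 genes, 5 were higher and 4 lower, where 8.6% of all tested genes were higher and 9.37% lower, 18% in all. Their median log2 fold change was 0.16, and 0.00 over all genes. In each of the 7 pairwise comparisons, 18 to 24 of the 30 genes had no overlap between the 2 groups, called or not. The share over all tested genes was not computed, and genes called on the same libraries are likely to show no overlap. A lack of overlap here and below therefore describes the values and adds no support to a call. Higher were Cpt1a, Slc25a20 and Acaa2 among the mitochondrial genes, and Abcd2 and Angptl4. Lower were Acsl3, Acsl4, Acsl5 and Ehhadh.

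Cpt1a, the control point of mitochondrial entry, had 216 and 199.7 CPM in the untreated libraries labelled CKO, against 141 and 121 CPM in untreated WT libraries. All values of the libraries labelled CKO lay above those of WT, at a log2 fold change ± approximate SE of 0.67 ± 0.10 (edgeR adjusted p = 0.00145). Its partner Slc25a20, the carnitine-acylcarnitine carrier, rose by 0.46 ± 0.12 (edgeR adjusted p = 0.0253), and Cpt2, the inner membrane transferase, gave 0.23 ± 0.11 and did not pass. Of the later enzymes only Acaa2, a mitochondrial thiolase, passed, at 0.44 ± 0.12 (edgeR adjusted p = 0.0328).

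Acsl3 had 15.1 and 15.7 CPM in the untreated libraries labelled CKO, against 27.9 and 39.9 CPM in untreated WT libraries, a log2 fold change of -1.14 ± 0.23 (edgeR adjusted p = 0.00719). The WT pair differed more between themselves than the pair labelled CKO, without overlap between the groups. Acsl4, which prefers arachidonic acid, had 118 and 105 CPM in those labelled CKO, against 148 and 151 CPM in WT libraries (-0.43 ± 0.10, edgeR adjusted p = 0.0129). Acsl5 fell by a smaller amount, with a log2 fold change of -0.31 ± 0.09 (edgeR adjusted p = 0.0364). Acsl1, the fourth synthetase, gave 0.11 ± 0.09 and did not pass.

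Abcd2 (chromosome 15, 91145871 to 91191799, minus strand of GRCm38) had 95.1 and 57.5 CPM in the untreated libraries labelled CKO, against 22.6 and 18.1 CPM in untreated WT libraries. The lower value of the pair labelled CKO was still above both WT values, at 1.91 ± 0.23 (edgeR adjusted p = 0.000477). Angptl4 had 5.58 and 3.32 CPM in those labelled CKO, against 1.40 and 1.06 CPM in WT libraries (1.84 ± 0.29, edgeR adjusted p = 0.00204), again without overlap. Ehhadh fell by 1.17 ± 0.31 on the log2 scale (edgeR adjusted p = 0.0243), from library counts of 19 to 56 in the groups compared. Neutrophil and monocyte markers also differed between these groups, with neutrophil sums of 732.5 to 989.5 CPM in the libraries labelled CKO and 235 to 242 CPM in WT libraries and monocyte sums of 157 to 171 CPM in the libraries labelled CKO and 74.6 to 79.6 CPM in WT libraries, and their part in these differences was not tested. Without untreated CKO library 1 the calls of Slc25a20 (0.30), Acaa2 (0.29), Acsl3 (-1.11), Acsl5 (-0.23) and Ehhadh (-1.13) were lost, which left 3 higher (Cpt1a, Abcd2, Angptl4) and 1 lower (Acsl4). Leaving out an untreated WT library ended those of Slc25a20, Acaa2, Acsl4 and Acsl5 with either library, of Acsl3 with library 2 (-0.86) and of Ehhadh with library 1 (-0.88), a fit of these groups alone kept Cpt1a, Acsl3, Abcd2 and Angptl4, and Acaa2 and Acsl5 were also lost without any 1 of the IFN-γ CKO or IL-4 WT libraries. Without untreated CKO library 2 there were 9 higher and 6 lower, where 30.7% of all tested genes were called, and without library 1 5.49% were.

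After IFN-γ, the libraries labelled CKO had more RNA of the lipid droplet gene Plin2 and of the peroxisomal importers, and less Ppargc1b, than WT libraries. Of the 30 genes, 5 were higher and 5 lower, where 10.4% of all tested genes were higher and 8.01% lower, 18.4% in all, and the median log2 fold change was -0.02, against 0.02 over all genes. Higher were Cpt1a, Abcd2, Abcd3, Angptl4 and Plin2, and lower were Etfa, Acsl1, Acox3, Ehhadh and Ppargc1b.

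Plin2 (chromosome 4, 86648386 to 86670060, minus strand) had 1137 and 1253 CPM in the IFN-γ libraries labelled CKO, against 564 and 531 CPM in IFN-γ WT libraries. Those labelled CKO had the highest Plin2 levels of all 12 libraries, and the log2 fold change was 1.13 ± 0.13 (edgeR adjusted p = 0.000163). Abcd2 had 32.4 and 34.3 CPM in those labelled CKO, against 10.2 and 9.03 CPM in WT libraries, or 3.48-fold (1.799 ± 0.24, edgeR adjusted p = 0.000476). Abcd3, which imports branched-chain and dicarboxylic acyl-CoA into peroxisomes, had 98.4 and 97.4 CPM in those labelled CKO, against 58.1 and 66.6 CPM in WT libraries (0.65 ± 0.10, edgeR adjusted p = 0.000762). For these 3 genes the groups did not overlap.

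Cpt1a had 228 and 220.3 CPM in the IFN-γ libraries labelled CKO, against 159.5 and 146 CPM in IFN-γ WT libraries (0.56 ± 0.10, edgeR adjusted p = 0.00257), so that it stood higher in those labelled CKO in this treatment too. Ppargc1b had 5.53 and 5.61 CPM in those labelled CKO, against 15.0 and 14.1 CPM in WT libraries (-1.39 ± 0.27, edgeR adjusted p = 0.00461). Its WT values were the highest of all 12 libraries. Acsl1 had 93.1 and 92.0 CPM in those labelled CKO, against 121 and 119 CPM in WT libraries (-0.37 ± 0.09, edgeR adjusted p = 0.0146). The 2 peroxisomal enzymes that fell were Acox3, an acyl-CoA oxidase, at -0.67 ± 0.18 (edgeR adjusted p = 0.027), and Ehhadh, at -1.45 ± 0.38 (edgeR adjusted p = 0.0196). Etfa, a subunit of electron transfer flavoprotein, fell by 0.33 ± 0.10 (edgeR adjusted p = 0.0473), and Angptl4, with 2.22 and 3.01 CPM in those labelled CKO and 1.32 and 1.08 CPM in WT libraries, rose by 1.12 ± 0.31 (edgeR adjusted p = 0.0271). The neutrophil marker sums were 522 to 523 CPM in the libraries labelled CKO and 99.98 to 113 CPM in WT libraries, and those of monocyte markers 295 to 311 CPM in the libraries labelled CKO and 164 to 208 CPM in WT libraries. Dendritic cell markers ran the other way, with sums over 8 genes of 8.40 to 10.4 CPM in the libraries labelled CKO and 50.9 to 60.3 CPM in WT libraries and 3 of 5 tested genes lower, and the part of these markers was not tested. Leaving out 1 of the compared libraries ended the calls of Etfa and Angptl4 (0.87 to 1.31) with any of the 4, of Acsl1 and Acox3 with either library labelled CKO or WT library 1, and of Ehhadh with either library labelled CKO or WT library 2, which left 4 higher and 1 to 3 lower; without either untreated library labelled CKO there were 7 lower, where 24% and 24.2% of all genes were called. Etfa was further lost with DESeq2 size factors, with no filter on low counts, and without CKO IL-4 library 2 or any 1 of the untreated or IL-4 WT libraries.

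After IL-4, 2 genes were higher and 1 lower in the libraries labelled CKO than in WT libraries, where 1.41% of all tested genes were higher and 1.55% lower, 2.96% in all, and the median was 0.06, against -0.01 over all genes. Abcd2 had 115 and 83.4 CPM in the IL-4 libraries labelled CKO, against 51.8 and 46.4 CPM in IL-4 WT libraries (1.01 ± 0.22, edgeR adjusted p = 0.0349). Angptl4 had 1.70 and 1.64 CPM in those labelled CKO, against 0.627 and 0.439 CPM in WT libraries (1.67 ± 0.37, edgeR adjusted p = 0.0342), where each WT value rested on 13 counts. Acsl4 had 104 and 116 CPM in those labelled CKO, against 154 and 153 CPM in WT libraries (-0.49 ± 0.10, edgeR adjusted p = 0.0195). None of these groups overlapped. The synthetases Acsl1, with 47.0 and 52.3 CPM in the IL-4 libraries labelled CKO against 49.9 and 45.6 CPM in IL-4 WT libraries, and Acsl5, with 172 and 189.6 CPM against 201 and 193 CPM in those groups, did not pass. Acsl3 had 14.4 and 21.3 CPM in those labelled CKO, against 28.1 and 39.3 CPM in WT libraries (-0.92 ± 0.22). Ppargc1b had 13.04 and 8.50 CPM in those labelled CKO, against 7.48 and 6.65 CPM in WT libraries (0.61 ± 0.27). Neither passed edgeR's test. Their groups did not overlap, as was so for 19 of the 30 genes in this comparison. The 18 mitochondrial enzymes and carriers gave log2 fold changes between -0.12 and 0.38 with no call. Neutrophil markers summed to 435 to 502 CPM in the libraries labelled CKO and to 213 to 220.3 CPM in WT libraries, monocyte markers to 666 to 718 CPM in the libraries labelled CKO and 228 to 280.1 CPM in WT libraries, and their part was not tested. The calls of Acsl4 (-0.41 to -0.48) and Abcd2 (0.76 to 1.11) were lost without CKO library 1 or either WT library, that of Angptl4 (1.42 to 1.93) without any 1 of these 4 libraries, and Abcd2 also without any 1 of the 4 IFN-γ libraries, so that leaving out 1 compared library left 0 to 1 higher and 0 to 2 lower. DESeq2 further called Cpt1a (0.39) and Acsl3 (-0.91), and without either untreated library labelled CKO edgeR called 3 higher, where 4.12% and 4.2% of all genes were called.

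**Figure D2:**
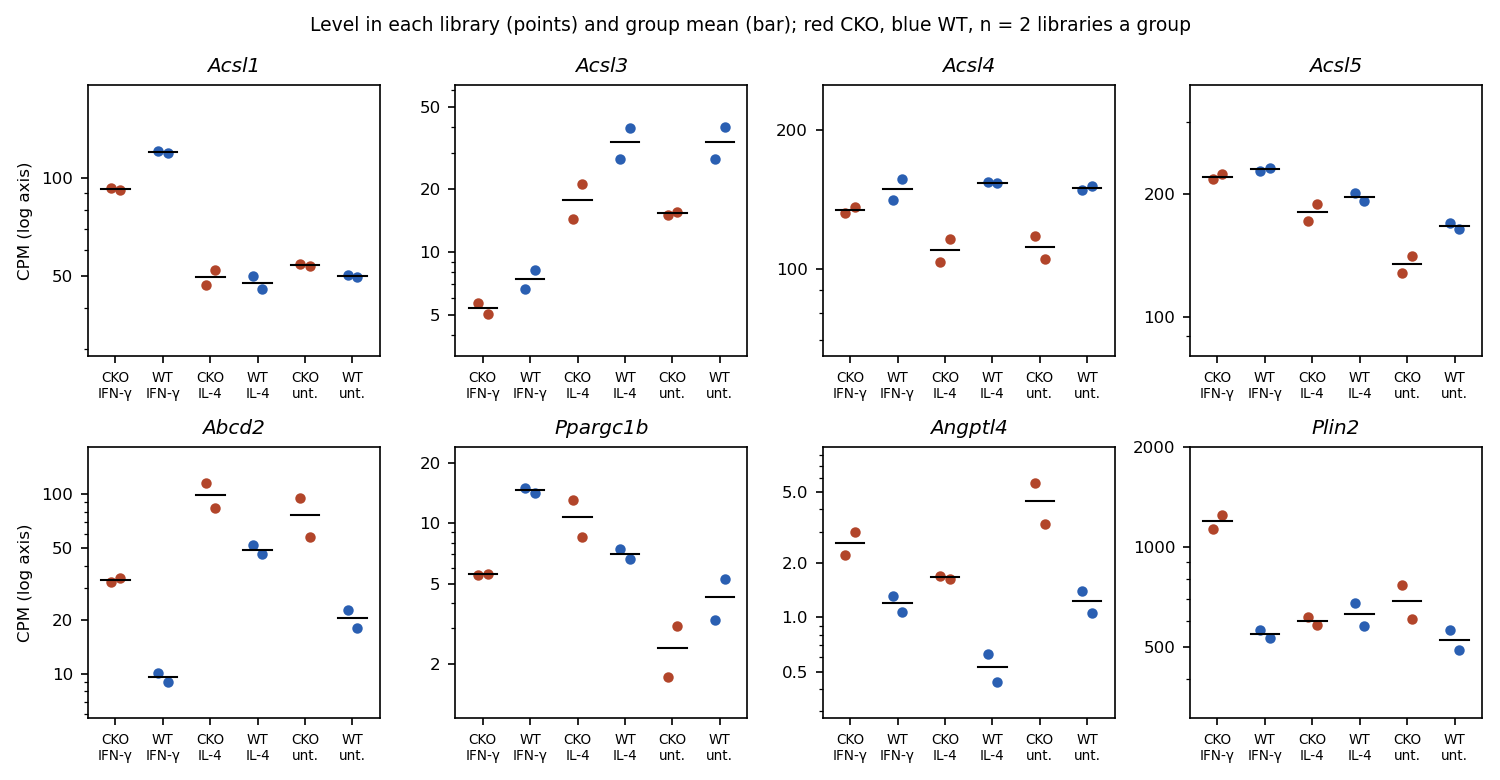
Levels of 8 genes in CPM (vertical log axis) in each of the 12 libraries (points; red labelled CKO, blue WT), with bars at the group means of n = 2 libraries. Acsl1 and Acsl3 move in opposite directions with IFN-γ in both genotypes, Abcd2 lies higher in the libraries labelled CKO within each treatment, and the IFN-γ libraries labelled CKO hold the highest Plin2 points.

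In WT cells, IFN-γ changed 3 of the 4 synthetases. Against untreated WT libraries, 3 genes were higher (Acsl1, Acsl5, Ppargc1b) and 2 lower (Acsl3, Abcd2), where 12.4% of all tested genes were higher and 11.8% lower, 24.2% in all. The median log2 fold change was -0.03, against 0.00 over all genes. The 18 mitochondrial enzymes and carriers gave values between -0.33 and 0.38 with no call.

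Acsl1 (chromosome 8, 46471037 to 46536051, plus strand) had 121 and 119 CPM in IFN-γ WT libraries, against 50.3 and 49.8 CPM in untreated WT libraries, or 2.40-fold (1.26 ± 0.09, edgeR adjusted p = 9.22e-07). Acsl3 (chromosome 1, 78657825 to 78707743, plus strand) had 6.63 and 8.17 CPM in IFN-γ WT libraries, against 27.9 and 39.9 CPM in untreated WT libraries (-2.19 ± 0.24, edgeR adjusted p = 3.47e-05). Acsl5 had 229 and 232 CPM in IFN-γ WT libraries, against 169.6 and 164 CPM in untreated WT libraries (0.47 ± 0.09, edgeR adjusted p = 0.00215). All 3 sets of values were free of overlap, and Acsl4 did not pass, at -0.01 ± 0.10.

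Ppargc1b had 15.0 and 14.1 CPM in IFN-γ WT libraries, against 3.29 and 5.25 CPM in untreated WT libraries (1.77 ± 0.28, edgeR adjusted p = 0.000533). Abcd2 had 10.2 and 9.03 CPM in IFN-γ WT libraries, against 22.6 and 18.1 CPM in untreated WT libraries (-1.09 ± 0.24, edgeR adjusted p = 0.00604). Both pairs of groups were apart by more than their own spread. Of the 5 calls, that of Abcd2 was lost without untreated WT library 1 (-0.92, edgeR adjusted p = 0.0521) or IFN-γ WT library 2 (-1.003, edgeR adjusted p = 0.0593), and the stricter filter at a mean CPM of 5 added Acadm and Hadh as lower (-0.32 and -0.31), while leaving out either untreated library labelled CKO, outside this comparison, gave 5 higher and 4 lower, where 27.9% and 28% of all genes were called. In IFN-γ WT libraries monocyte markers summed to 164 to 208 CPM, neutrophil markers to 99.98 to 113 CPM and dendritic cell markers to 50.9 to 60.3 CPM. In untreated WT libraries they summed to 74.6 to 79.6, 235 to 242 and 1.91 to 2.55 CPM. Gene by gene, 1 of 13 tested neutrophil markers was called higher and 2 lower, with a median log2 fold change of 0.263. The neutrophil sum therefore does not stand for most genes of its list. Of 8 monocyte markers, 4 were called higher and 2 lower (median 0.497), and of 5 dendritic cell markers 3 and 0 (median 1.249). The part of these markers was not tested.

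In cells labelled CKO, IFN-γ raised Acsl1 and Acsl5, lowered Acsl3 and lowered 6 mitochondrial enzymes. Against untreated libraries labelled CKO, 4 genes were higher (Acsl1, Acsl5, Ppargc1b, Plin2) and 8 lower (Acadm, Acads, Hadha, Hadh, Eci2, Decr1, Acsl3, Abcd2), where 14.7% of all tested genes were higher and 11.9% lower, 26.6% in all. The median log2 fold change was -0.18, against 0.00 over all genes. In WT cells the 6 mitochondrial enzymes were not called in the main fit, but their mean CPM was also lower after IFN-γ than in untreated libraries. The WT means were 28.4 against 35.1 CPM for Acads, 33.5 against 41.2 for Hadh and 38.8 against 47.8 for Acadm. They were 26.7 against 32.3 CPM for Eci2, 20.4 against 24.6 for Decr1 and 109.5 against 120.7 for Hadha.

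Acads, the short-chain acyl-CoA dehydrogenase, had 24.8 and 24.7 CPM in the IFN-γ libraries labelled CKO, against 42.3 and 38.3 CPM in the untreated libraries labelled CKO (-0.70 ± 0.12, edgeR adjusted p = 0.00087). The groups were far apart relative to the spread of each. Acadm, the medium-chain dehydrogenase, fell by 0.40 ± 0.10 (edgeR adjusted p = 0.0118). Hadh, a hydroxyacyl-CoA dehydrogenase of short and medium chains, fell by 0.54 ± 0.10 (edgeR adjusted p = 0.00192), and Hadha by 0.38 ± 0.09 (edgeR adjusted p = 0.0074). The auxiliary enzymes for unsaturated chains Eci2, an enoyl-CoA isomerase, and Decr1, a dienoyl-CoA reductase, fell by 0.41 ± 0.11 (edgeR adjusted p = 0.0174) and 0.38 ± 0.12 (edgeR adjusted p = 0.0346).

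Acsl1 had 93.1 and 92.0 CPM in the IFN-γ libraries labelled CKO, against 54.4 and 53.6 CPM in the untreated libraries labelled CKO (0.78 ± 0.09, edgeR adjusted p = 5.36e-05). Acsl3 had 5.68 and 5.06 CPM after IFN-γ, against 15.1 and 15.7 CPM in untreated libraries, both labelled CKO (-1.52 ± 0.24, edgeR adjusted p = 7e-04). Acsl5 had 218 and 224 CPM after IFN-γ, against 128 and 141 CPM in untreated libraries, both labelled CKO (0.71 ± 0.09, edgeR adjusted p = 8.91e-05). In each case the 2 IFN-γ values stood clear of the 2 untreated values.

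Plin2 had 1137 and 1253 CPM in the IFN-γ libraries labelled CKO, against 769.6 and 608 CPM in the untreated libraries labelled CKO (0.80 ± 0.13, edgeR adjusted p = 0.000742), and in WT it gave 0.06 ± 0.13 and did not pass. Abcd2 had 32.4 and 34.3 CPM after IFN-γ, against 95.1 and 57.5 CPM in untreated libraries, both labelled CKO (-1.19 ± 0.22, edgeR adjusted p = 0.00214). Ppargc1b had 5.53 and 5.61 CPM after IFN-γ, against 1.71 and 3.09 CPM in untreated libraries, both labelled CKO (1.19 ± 0.30, edgeR adjusted p = 0.0117). None of these overlapped. The calls of Acadm, Eci2, Decr1 and Ppargc1b were lost without untreated CKO library 1, at -0.29, -0.31, -0.25 and 0.83, and without either IFN-γ CKO library, that of Hadha without IFN-γ CKO library 1 (-0.39), and that of Decr1 also without either untreated WT library. A fit of these groups alone left 4 lower genes, those of Acads, Hadh, Acsl3 and Abcd2, and without untreated CKO library 2 there were 10 lower, where 19% and 32% of all genes were called. Neutrophil marker sums were 522 to 523 CPM after IFN-γ and 732.5 to 989.5 CPM in untreated libraries labelled CKO. Monocyte marker sums were 295 to 311 CPM after IFN-γ and 157 to 171 CPM in untreated libraries labelled CKO. Gene by gene, 6 of 13 tested neutrophil markers were called higher and 1 lower, with a median log2 fold change of 0.488. The neutrophil sum therefore does not stand for most genes of its list. Of 8 monocyte markers, 5 were called higher and 2 lower (median 0.759). The part of these markers was not tested.

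The genotype by IFN-γ interaction, which tests whether the response to IFN-γ differed between cells labelled CKO and WT, called none of the 30 genes with edgeR, where 2.07% of all tested genes had a positive and 0.651% a negative interaction, 2.72% in all. At an unadjusted p under 0.05 there were 5, and the share of all tested genes at that threshold was not computed. Plin2 gave 0.73 ± 0.18 (edgeR adjusted p = 0.0641) and Abcd3 0.38 ± 0.14 (edgeR adjusted p = 0.227), more positive in the cells labelled CKO. Acsl1 gave -0.48 ± 0.13 (edgeR adjusted p = 0.0819), Hadhb -0.45 ± 0.18 (edgeR adjusted p = 0.289) and Acads -0.40 ± 0.17 (edgeR adjusted p = 0.331), more negative in the cells labelled CKO. DESeq2 called Plin2 (0.73, adjusted p = 0.0131) and Acsl1 (-0.49, adjusted p = 0.0266). In edgeR, Plin2 passed with no filter on low counts (0.74, adjusted p = 0.000456) and, among fits that left out a library, without untreated CKO library 1 (0.89, adjusted p = 0.0258). Hadhb passed without untreated CKO library 2 (-0.63, adjusted p = 0.024), where 6.19% of all genes were called.

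In WT cells, 3 of the 30 genes (10%) were called with IL-4, where 12.2% of all tested genes were called. Against untreated WT libraries, 3 were higher and none lower, where 6.64% of all tested genes were higher and 5.59% lower, 12.2% in all. The median log2 fold change was 0.19, against 0.00 over all genes. Abcd2 had 51.8 and 46.4 CPM in IL-4 WT libraries, against 22.6 and 18.1 CPM in untreated WT libraries (1.27 ± 0.23, edgeR adjusted p = 0.00382). Etfdh, which passes electrons from the flavoprotein to ubiquinone, had 48.7 and 46.5 CPM in IL-4 WT libraries, against 34.8 and 34.4 CPM in untreated WT libraries (0.46 ± 0.11, edgeR adjusted p = 0.0216). Hadha had 155 and 149 CPM in IL-4 WT libraries, against 122 and 119 CPM in untreated WT libraries (0.33 ± 0.09, edgeR adjusted p = 0.0317). The groups did not overlap for any of the 3. The calls of Etfdh (0.42 to 0.48) and Hadha (0.30 to 0.35) were lost without any 1 of the 4 compared libraries, Hadha also without either IFN-γ CKO library or with no filter, while a fit of these groups alone called 10 higher, adding Acadm, Hadhb, Acaa2, Decr1, Etfa, Acsl5 and Ppargc1b at 0.23 to 0.72, and Angptl4 as lower (-1.23), where 22% of all genes were called. Without either untreated library labelled CKO, outside this comparison, 5 were higher and 1 lower, where 15.3% of all genes were called. In IL-4 WT libraries monocyte markers summed to 228 to 280.1 CPM, neutrophil markers to 213 to 220.3 CPM and dendritic cell markers to 7.30 to 8.25 CPM. In untreated WT libraries they summed to 74.6 to 79.6, 235 to 242 and 1.91 to 2.55 CPM. Gene by gene, 2 of 8 monocyte markers were called higher and 1 lower, with a median log2 fold change of -0.122. The monocyte sum therefore does not stand for most genes of its list. Of 13 tested neutrophil markers, 0 were called higher and 1 lower (median -0.257), and of 5 dendritic cell markers 2 and 0 (median -0.091). The part of these markers was not tested.

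In cells labelled CKO, 5 of the 30 genes (16.7%) were called with IL-4, where 22.5% of all tested genes were called. Against untreated libraries labelled CKO, 4 genes were higher (Etfa, Etfb, Acsl5, Ppargc1b) and 1 lower (Angptl4), where 11.2% of all tested genes were higher and 11.3% lower, 22.5% in all, and the median was 0.11, against 0.00 over all genes. Etfa had 65.6 and 61.4 CPM in the IL-4 libraries labelled CKO, against 39.2 and 45.6 CPM in the untreated libraries labelled CKO (0.58 ± 0.10, edgeR adjusted p = 0.00238). Etfb had 24.2 and 26.2 CPM after IL-4, against 14.1 and 18.4 CPM in untreated libraries, both labelled CKO (0.63 ± 0.15, edgeR adjusted p = 0.0123). These 2 genes encode the subunits of electron transfer flavoprotein. In WT they gave 0.33 ± 0.10 and 0.28 ± 0.15, in the same direction, and did not pass. Etfa passed in WT in a fit of those groups alone (0.33, edgeR adjusted p = 0.0125). Of the exon bases of Etfb, 53.0% overlap Gm45233 on the same strand.

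Ppargc1b had 13.04 and 8.50 CPM in the IL-4 libraries labelled CKO, against 1.71 and 3.09 CPM in the untreated libraries labelled CKO (2.14 ± 0.29, edgeR adjusted p = 0.000362). Acsl5 had 172 and 189.6 CPM after IL-4, against 128 and 141 CPM in untreated libraries, both labelled CKO (0.42 ± 0.09, edgeR adjusted p = 0.00617). Angptl4 had 1.70 and 1.64 CPM after IL-4, against 5.58 and 3.32 CPM in untreated libraries, both labelled CKO (-1.40 ± 0.28, edgeR adjusted p = 0.00452). The 5 sets of values were free of overlap, which the choice of called genes made likely. The call of Etfb was lost without untreated CKO library 1 (0.45) or IL-4 CKO library 2 (0.58), and a fit of these groups alone kept Ppargc1b and Angptl4 and lost Etfa, Etfb and Acsl5 at fold changes of 0.59, 0.64 and 0.43. Neutrophil markers summed to 435 to 502 CPM after IL-4 and 732.5 to 989.5 CPM in untreated libraries labelled CKO. Monocyte markers summed to 666 to 718 CPM after IL-4 and 157 to 171 CPM in untreated libraries labelled CKO. Gene by gene, 1 of 8 monocyte markers was called higher and 2 lower, with a median log2 fold change of -0.485. The monocyte sum therefore does not stand for most genes of its list. Of 13 tested neutrophil markers, 0 were called higher and 3 lower (median -0.46). The part of these markers was not tested.

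The genotype by IL-4 interaction called none of the 30 genes with edgeR or with DESeq2, where 0.0246% of all tested genes had a positive and 0.0123% a negative interaction with edgeR, 0.0368% in all. At an unadjusted p under 0.05 there were 3, and the share of all tested genes at that threshold was not computed. Ppargc1b gave 1.42 ± 0.41 (edgeR adjusted p = 0.678), Abcd2 -0.89 ± 0.31 (edgeR adjusted p = 0.773) and Plin2 -0.46 ± 0.18 (edgeR adjusted p = 0.773). Ppargc1b (1.44) and Abcd2 (-0.86) passed with no filter on low counts, and also without untreated CKO library 2 (1.94 and -1.20), where 2.28% of all genes were called.

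The 18 mitochondrial enzymes and carriers had a summed level of 899 ± 4.81 CPM in the IFN-γ libraries labelled CKO and 848 ± 28.3 CPM in IFN-γ WT libraries (SD, n = 2 each). After IL-4 the sum was 1053 ± 41.7 CPM in the libraries labelled CKO and 975 ± 21.8 CPM in WT libraries, and in untreated cells 989.9 ± 64.4 CPM in those labelled CKO and 848 ± 45.7 CPM in WT libraries. Within each treatment both libraries labelled CKO lay above both WT libraries, but this rests in part on Cpt1a. The 17 other genes summed to 674 and 675 CPM in the IFN-γ libraries labelled CKO, below the 708 and 682 CPM of IFN-γ WT libraries. After IL-4 the 17 genes summed to 889.7 and 838 CPM in the libraries labelled CKO, against 841 and 819 CPM in WT libraries, which overlap. In untreated cells they summed to 819 and 745 CPM in the libraries labelled CKO, against 739.5 and 695 CPM in WT libraries, without overlap. With all 18 genes, within the cells labelled CKO the IL-4 values (1082 and 1024 CPM) overlapped the untreated ones (1035 and 944 CPM). These sums are given without a test.

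Hadha and Hadhb, which share the promoter sequence shown above and encode subunits of the same complex, did not keep a fixed ratio of counts. In WT cells Hadha stood at 1.40 and 1.24 times Hadhb after IFN-γ, against 1.63 and 1.72 times in untreated libraries. In cells labelled CKO the ratio was 1.49 and 1.59 after IFN-γ, against 1.57 and 1.86 in untreated libraries, where the groups overlapped. Neither Hadhb comparison passed, at 0.20 ± 0.12 in WT and -0.24 ± 0.12 in cells labelled CKO. The ratio is of CPM and is not corrected for length, which is the same in every library.

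**Figure D3:**
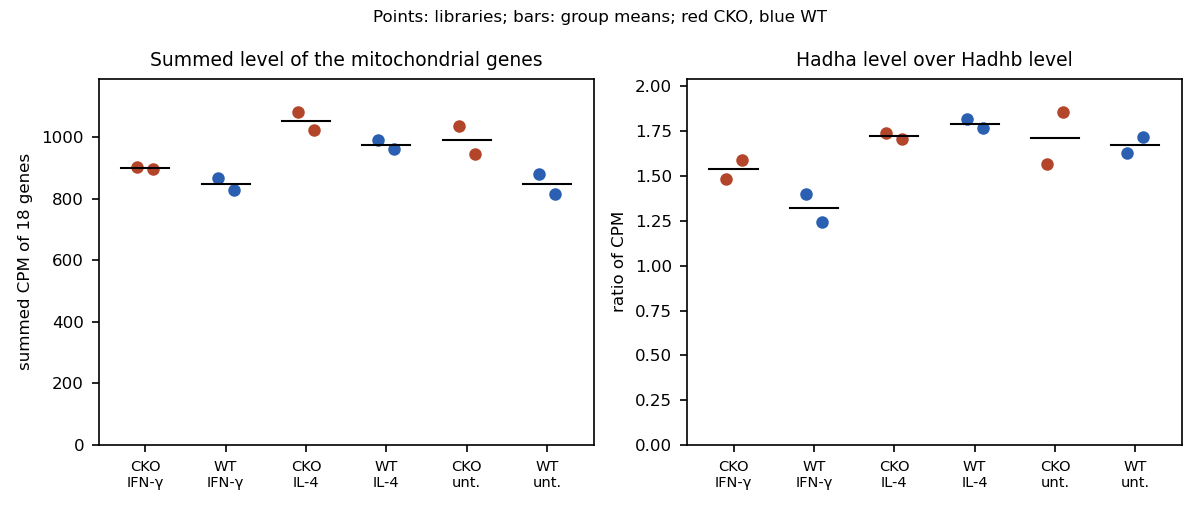
Summed CPM of the 18 mitochondrial genes (left) and the ratio of Hadha to Hadhb CPM (right) in each library (points; red labelled CKO, blue WT), with bars at group means of n = 2. The sums in the IL-4 libraries labelled CKO lie between 1024 and 1082 CPM, and the ratio reaches its lowest points, 1.24 and 1.40, in the IFN-γ WT libraries.

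Per kilobase of coding sequence, Acsl5 and Acsl4 made up most of the RNA of the 4 synthetases in every library, with Acsl5 at 41.5% to 52.1% of their sum. Acsl1 made up 19.5% and 20.1% in the IFN-γ libraries labelled CKO, against 16.5% and 16.7% in untreated libraries labelled CKO. In WT cells its share was 22.4% and 23.5% after IFN-γ, against 11.9% and 12.3% in untreated libraries. Acsl3 made up 1.08% and 1.23% after IFN-γ, against 4.67% and 4.84% in untreated libraries, all labelled CKO. In WT cells it made up 1.30% and 1.54% after IFN-γ, against 6.87% and 9.63% in untreated libraries. With exon-union lengths, a choice made after seeing the data, the share of Acsl1 was smaller in all libraries (12.7% and 13.4% in IFN-γ WT libraries), and the direction of its difference between IFN-γ and untreated libraries was the same.

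**Figure D4:**
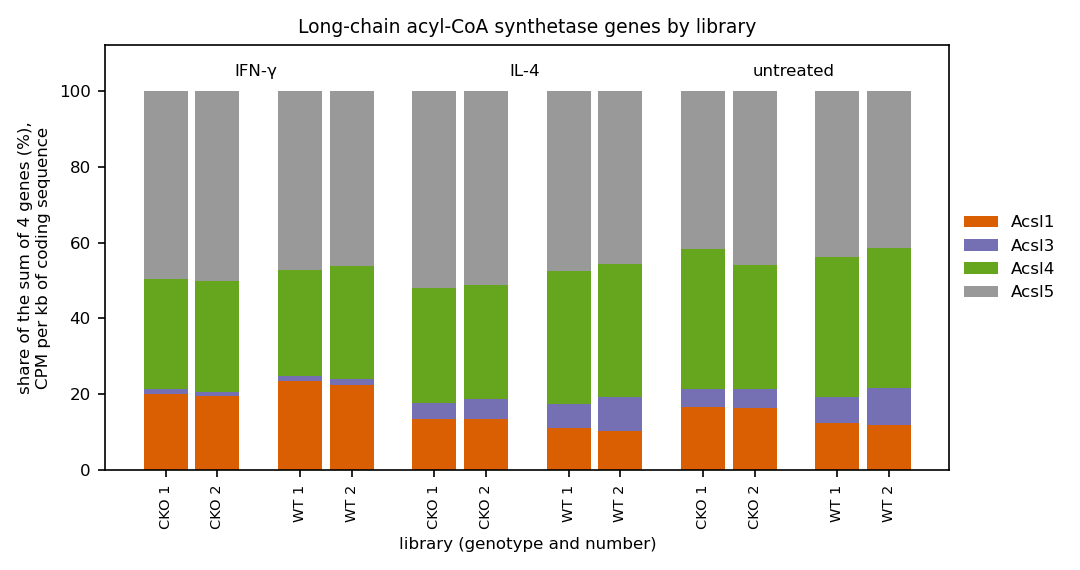
Share of each of the 4 long-chain acyl-CoA synthetase genes in their summed CPM per kilobase of coding sequence (vertical axis, %) in each of the 12 libraries. The Acsl3 segment narrows to 1.08% to 1.54% in the 4 IFN-γ libraries.

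Genes around the pathway were read from 4 further lists. Of 26 tested genes of other mitochondrial steps, none was called in CKO against WT after IL-4, and in the other 6 comparisons 1 to 2 were higher and 0 to 5 lower, or 3.85% to 7.69% and 0% to 19.2%, where 6.64% to 14.7% of all tested genes were higher and 5.59% to 11.9% lower. Ivd, the isovaleryl-CoA dehydrogenase of leucine breakdown, gave -0.71 ± 0.11 with IFN-γ in WT cells, and Pccb, a subunit of propionyl-CoA carboxylase, -0.79 ± 0.11 with IFN-γ in cells labelled CKO (edgeR adjusted p = 0.000351 and 0.000262). Of 33 tested peroxisomal genes, IFN-γ raised 3 and lowered 8 in cells labelled CKO (9.09% and 24.2%, against 14.7% and 11.9% of all genes), and raised 3 and lowered 8 in WT cells (against 12.4% and 11.8% of all genes). Cat, the peroxisomal catalase, fell by 2.04 ± 0.13 (edgeR adjusted p = 3.26e-07) in cells labelled CKO and by 1.78 ± 0.13 (edgeR adjusted p = 1.13e-06) in WT cells. In untreated cells 6 peroxisomal genes were higher and none lower in those labelled CKO (18.2% and 0%, against 8.6% and 9.37% of all genes), with 7 higher and 1 lower after IFN-γ (21.2% and 3.03%, against 10.4% and 8.01%) and no call after IL-4. IL-4 raised 2 and lowered 7 peroxisomal genes in cells labelled CKO (6.06% and 21.2%, against 11.2% and 11.3% of all genes) and raised 2 and lowered 1 in WT cells (6.06% and 3.03%, against 6.64% and 5.59%), and Pex26, a peroxisomal import receptor anchor, gave 1.20 ± 0.16 in cells labelled CKO (edgeR adjusted p = 0.000263) and 1.16 ± 0.16 in WT cells (edgeR adjusted p = 0.000462).

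Among 27 tested genes of lipid uptake, storage and lipolysis, 8 were higher and 5 lower in untreated cells labelled CKO than in WT (29.6% and 18.5%, against 8.6% and 9.37% of all genes). Fabp4 and Fabp5, intracellular fatty acid carriers, gave -2.21 ± 0.29 and -1.46 ± 0.19 (edgeR adjusted p = 0.00116 and 0.000763). After IFN-γ, 8 were higher and 3 lower in those labelled CKO (29.6% and 11.1%, against 10.4% and 8.01%), and after IL-4 1 was higher and 2 lower (3.7% and 7.41%, against 1.41% and 1.55%). IFN-γ raised 8 and lowered 8 in cells labelled CKO (29.6% each, against 14.7% and 11.9%) and raised 5 and lowered 6 in WT cells (18.5% and 22.2%, against 12.4% and 11.8%), and Lipe, the hormone-sensitive lipase, rose by 0.96 ± 0.11 in cells labelled CKO (edgeR adjusted p = 4.35e-05) and 0.95 ± 0.11 in WT cells (edgeR adjusted p = 5.63e-05). IL-4 raised 7 and lowered 5 in cells labelled CKO (25.9% and 18.5%, against 11.2% and 11.3%) and raised 4 and lowered 1 in WT cells (14.8% and 3.7%, against 6.64% and 5.59%).

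Among 25 tested regulators and PPAR targets, Nr1h3, the lipid-sensing receptor LXRα, was higher in the libraries labelled CKO by 1.53 ± 0.14 in untreated cells, 3.22 ± 0.14 with IFN-γ and 0.97 ± 0.14 with IL-4 (edgeR adjusted p = 6.53e-05, 1.95e-07 and 0.0023). In those comparisons 20%, 24% and 4% of the list were higher (8.6%, 10.4% and 1.41% of all genes) and 4%, 0% and 0% lower (9.37%, 8.01% and 1.55% of all genes). IL-4 raised Pparg, the fatty acid receptor PPARγ, by 1.85 ± 0.11 in cells labelled CKO and by 1.67 ± 0.11 in WT cells (edgeR adjusted p = 5.13e-07 and 1.28e-06), among 5 higher and 2 lower in cells labelled CKO (20% and 8%, against 11.2% and 11.3% of all genes) and 4 higher and none lower in WT cells (16% and 0%, against 6.64% and 5.59%). IFN-γ raised 6 and lowered 2 in cells labelled CKO (24% and 8%, against 14.7% and 11.9%) and raised 3 and lowered 2 in WT cells (12% and 8%, against 12.4% and 11.8%).

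Some values carry a limit from the annotation, because the strand setting of the counting is not given in the sources used here. In GENCODE M21, 42.9% of the exon bases of Acadvl, the very-long-chain acyl-CoA dehydrogenase, overlap Dvl2 on the opposite strand, and 53.0% of those of Etfb overlap Gm45233 on the same strand. For the other genes with an overlap the share was 0.859% to 9.91%, with Acsl1 at the top. Acaa1a, a peroxisomal thiolase, has a near-identical copy, Acaa1b, and the split of reads between them is uncertain.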

How the data were processed

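RNA from 12 libraries of bone marrow-derived macrophages was measured in 6 groups of 2. The deposited table holds raw counts per Ensembl gene, and the authors' processing notes list HTSeq 0.6.1, TopHat2 2.0.13, CASAVA 1.8.2 and Picard 1.97, and name mm10 and GRCh38 without their roles. Library preparation with an RNA exome kit comes from the labels' protocols, and such capture can shift levels between genes. All 12 sample columns were used.

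From the counts, edgeR 4.0.16 (R 4.3.3) fitted 6 group means by its quasi-likelihood method with TMM scaling, after its default filter on low counts had kept 16292 of 48440 genes (22932 had no count). It left 6 residual degrees of freedom, and p-values were adjusted over all tested genes in each comparison by the method of Benjamini and Hochberg, with a threshold of 0.05. Fold changes are on the log2 scale, and their standard errors are approximate, taken as the fold change divided by the root of the F statistic. CPM are counts relative to the TMM-scaled library size. Alternatives were DESeq2 1.42.0, its size factors in edgeR, no filter, a filter at a mean CPM of 5, a fit of the compared groups alone, replicate blocks and leaving out each library. Scripts were tested on simulated data.

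The 30 genes and the further lists were chosen with earlier results of these data known. Every gene of the 30 that passed is named, and the 5 with the smallest adjusted p per comparison of groups are given by library, together with those called in at least 3 of the 7. From each further list up to 3 genes with the smallest adjusted p per comparison could be named. Some results are not reported here. Gene positions come from GENCODE M21 (GRCm38), which matched 20 of the 30 identifiers with their version and 30 without it.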

Additional observations from a re-analysis of the deposited data

Results flagged for a closer look

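Genes of the lists around the pathway responded to IFN-γ differently in cells labelled CKO and in WT cells by edgeR's interaction test. Klf4, a transcription factor of alternatively activated macrophages, gave an interaction of 1.98 on the log2 scale (edgeR adjusted p = 0.000274). Nr1h3 gave 1.69 (edgeR adjusted p = 0.00123). Both calls held when each library was left out. The fatty acid binding protein gene Fabp4 gave 1.92, the fatty acid receptor gene Cd36 -0.85, and Phyh, which encodes the peroxisomal phytanoyl-CoA hydroxylase, -0.79. Each of these 3 calls was lost when at least 1 library was left out.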

How the results depend on the processing

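Of the 47 calls over 7 comparisons, 22 were kept under every alternative in which the gene was fitted, 33 under all that left no library out, and none changed direction. Counts of the 30 genes that moved by over 1.5 times were these. Brackets give the share of all genes tested in the same fit that was called, in either direction. That share moved with the setting too, and its values in the main fit stand with each comparison above. With the compared groups alone, CKO against WT in untreated cells gave 3 higher and 1 lower (5.32%) and IFN-γ in CKO 4 lower (19%). In that setting IL-4 in WT gave 10 higher and 1 lower (22%) and IL-4 in CKO 1 higher (7.65%). With no filter, CKO against WT after IL-4 gave 4 higher and 3 lower (4.43%) and IL-4 in WT 1 lower (10.4%). The IFN-γ interaction then gave 1 higher (3.99%) and the IL-4 interaction 1 higher and 1 lower (1.14%). With a mean CPM of 5 or more, which leaves out Ehhadh and Angptl4, CKO against WT after IL-4 gave 1 higher (2.75%). There IFN-γ in WT gave 4 lower (29.2%) and IL-4 in CKO 0 lower (28.3%). DESeq2 gave 2 lower in CKO against WT after IL-4 (4.17%), and 1 higher and 1 lower in the IFN-γ interaction (4.08%). The labels do not say what the replicate numbers 1 and 2 mark, so the libraries share only a number. With the replicate block, CKO against WT after IL-4 gave 3 lower (5.28%) and IL-4 in WT 5 higher and 1 lower (15.4%). IFN-γ in WT gave 5 higher and 5 lower (27.7%), with Acadm, Acads and Hadh added as lower and Acadvl and Eci1 as higher. The IFN-γ interaction gave 1 higher (4.49%), that of Plin2 (edgeR adjusted p = 0.0173). With the replicate block within genotype, IFN-γ in WT gave 5 higher and 6 lower (30.6%), with Etfb added to the lower genes. IL-4 in WT gave 5 higher and 1 lower (18.6%) and IL-4 in CKO 2 lower (33.5%). The IFN-γ interaction gave 1 higher and 1 lower (6.63%), those of Plin2 (edgeR adjusted p = 0.00927) and Acsl1 (edgeR adjusted p = 0.0351). Deviations of libraries with the same number correlated at 0.12 to 0.60 within a genotype and at -0.02 to 0.35 between genotypes. Leaving out 1 library at a time gave 3 to 9 higher and 1 to 6 lower in CKO against WT in untreated cells, 4 to 7 and 1 to 7 after IFN-γ, and 0 to 3 and 0 to 2 after IL-4. The same ranges were 3 to 4 and 4 to 10 for IFN-γ in CKO, 3 to 5 and 1 to 4 for IFN-γ in WT, 3 to 5 and 1 to 2 for IL-4 in CKO, 1 to 5 and 0 to 1 for IL-4 in WT, and 0 to 1 in either direction for both interactions. In most of these ranges the highest count came without an untreated library labelled CKO, and the cause was not tested. Lower genes in CKO against WT after IL-4 were an exception, with the highest count reached without other libraries. For genes higher with IFN-γ in CKO, the highest count was that of the main fit. The share of all tested genes called also moved when a library was left out. Where 1 library of a group was left, its spread was taken from the other groups. Depth limits Ehhadh and Angptl4, whose lowest library counts were 9 and 13.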
